A study of Mus musculus with 30 samples.

Results

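The genes described here make, lengthen, store, release, carry and export lipids. A list of 43 genes was drawn up by known role, and members were found by symbol in both sperm RNA tables of the series: 41 of the 16242 features in the table made 24 h after the last injection, and 14 of the 3082 features in the table made 46 days after it. The members fall into de novo fatty acid synthesis (5 of 5 listed in the 24 h table and 4 in the 46-day table), desaturation and elongation (8 of 9, and 1), acyl-CoA synthetases (5 of 6, and 2), glycerolipid synthesis (7 of 7, and 4), lipid droplets and lipolysis (6 of 6, and 2), fatty acid uptake and binding (4 of 4, and 0), and sterol synthesis, efflux and their regulators (6 of 6, and 1). Elovl7 and Acsl6 are on the list but in neither table, so their RNA was not analysed here; their promoter sequence was.

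As background, cells build palmitate from acetyl-CoA, lengthen and desaturate it, join fatty acids to glycerol to make phospholipids and triglycerides, and keep the surplus in droplets from which lipases release it. Tesaglitazar activates the nuclear receptors PPARα and PPARγ, which in liver and fat control many genes of fatty acid handling. Sperm acquire membranes rich in polyunsaturated fatty acids and lose cholesterol as they gain the capacity to fertilise. Little or no transcription takes place in them by then, and part of the RNA they carry is thought to have been made before, in germ cells.

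Adult C57Bl/6J males received tesaglitazar at 10 µg/kg (TESA) or vehicle, DMSO in saline (CTRL), by intraperitoneal injection from 3 months of age, 2 per week for 4 weeks. Cauda sperm were collected by swim-up and treated with somatic cell lysis buffer. At 24 h, polyA RNA was sequenced from 4 TESA and 4 CTRL samples (numbers 1, 3, 5 and 7, and 2, 4, 6 and 8, the order in which values are given below); at 46 days, rRNA-depleted total RNA from 7 TESA samples (KG8-01 to KG8-05, KG8-11 and KG8-12) and 7 CTRL samples (KG8-06 to KG8-10, KG8-13 and KG8-14). The labels do not say whether each library came from a separate male, and the time after injection cannot be told apart from the library type.

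Levels are CPM, counts per 1000000 counts of the library, scaled by TMM, a normalisation that assumes that most features do not differ between samples; no transcript lengths were available, so levels are compared between samples and never between genes. At 24 h the libraries held 15337589 to 27709990 estimated counts, of which 20551 to 82874 belonged to members. At 46 days they held 4538102 to 13513816, but outside the 5 most abundant features only 158820 (KG8-02) to 7119414 (KG8-14), and members held 229 (KG8-02) to 27213 (KG8-14). In KG8-02, 3 of the 14 members had more than 20 counts, against all 14 in KG8-10, KG8-11 and KG8-14. TMM factors at 46 days ran from 0.0981 to 8.15, so member levels there depend strongly on the scaling.

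A single library stood apart at 46 days. In KG8-12 (TESA), the 14 members summed to 927 CPM, against 241 to 378 CPM in the other 13 libraries. It was the highest of all 14 libraries for 10 of the 14 members and the lowest for 2; over the 2261 mRNAs and lincRNAs tested it was the highest for 598 (26.4%) and the lowest for 610 (27%). Taken as CPM of all counts, without TMM, it was the highest for 3 of the 14 members and the lowest for 0. The percentages over all tested were not computed on that scale. Each comparison at 46 days is therefore given with and without KG8-12. Libraries KG8-11 to KG8-14 also differed from KG8-01 to KG8-10 in the share of Lars2 (1458 to 4128 against 92.1 to 212 CPM of all counts), and the labels do not say why; each of these sets holds both TESA and CTRL.

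Markers of spermatids and sperm were abundant at 24 h: all 21 listed were in the table and summed to 3987 to 12887 CPM, led by Odf1. Markers of other cells were present too. Of 23 leukocyte markers, 22 summed to 1406 to 2696 CPM in TESA and 1320 to 2168 in CTRL, led by Cd52 (1029 to 2382 CPM), a gene that epididymal epithelium also expresses; without Cd52 the sums were 239.6 to 354 and 239 to 499 CPM. Of 28 markers of epididymal epithelium, 12 summed to 1342 to 2035 CPM in TESA and 1151 to 2751 in CTRL, led by Crisp1; without Crisp1 the sums were 847 to 1769 and 839 to 1066 CPM. Of 13 blood and endothelium markers, 7 summed to 111 to 180 and 89.8 to 298 CPM (led by Hba-a2), and of 13 smooth muscle and stroma markers, 10 summed to 59.5 to 153 and 51.9 to 192 CPM (led by Col1a1). Of 10 adipocyte markers Aqp7 was the only one in the table, at 0 to 2.65 CPM; Adipoq, Plin1 and Pparg were not analysed here. In bulk RNA such as this, fewer cells of a type and less RNA per cell cannot be told apart.

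The comparison at 24 h asks whether lipid genes differ in sperm collected just after the injections end. As a list the members showed little shift: 18 of the 40 tested were higher in TESA and 22 lower, with a median log2 fold change of -0.04 (range -1.62 to 0.69) against -0.01 over all 13032 mRNAs and lincRNAs tested. With library totals in place of TMM 27 of 40 were higher, with a median of 0.17 against 0.21 over all genes. Monoglyceride lipase Mgll and the elongase Elovl1 were the members farthest above CTRL relative to their error. With Benjamini-Hochberg adjustment of edgeR's quasi-likelihood test, 0 of 40 members passed 0.05, as did 0% of all tested; edgeR's exact test, DESeq2 and limma voom also called 0 of them and 0 of all tested. At an unadjusted p under 0.05 there were 2 members higher in TESA, where 0.982% of all tested were, and 0 lower, where 1.42% were. Groups that do not overlap were found for 0 of 40 members and for 3.05% of all tested. Cd36 had 50 counts at most (0 to 2.17 CPM) and was not tested.

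**Figure D1:**
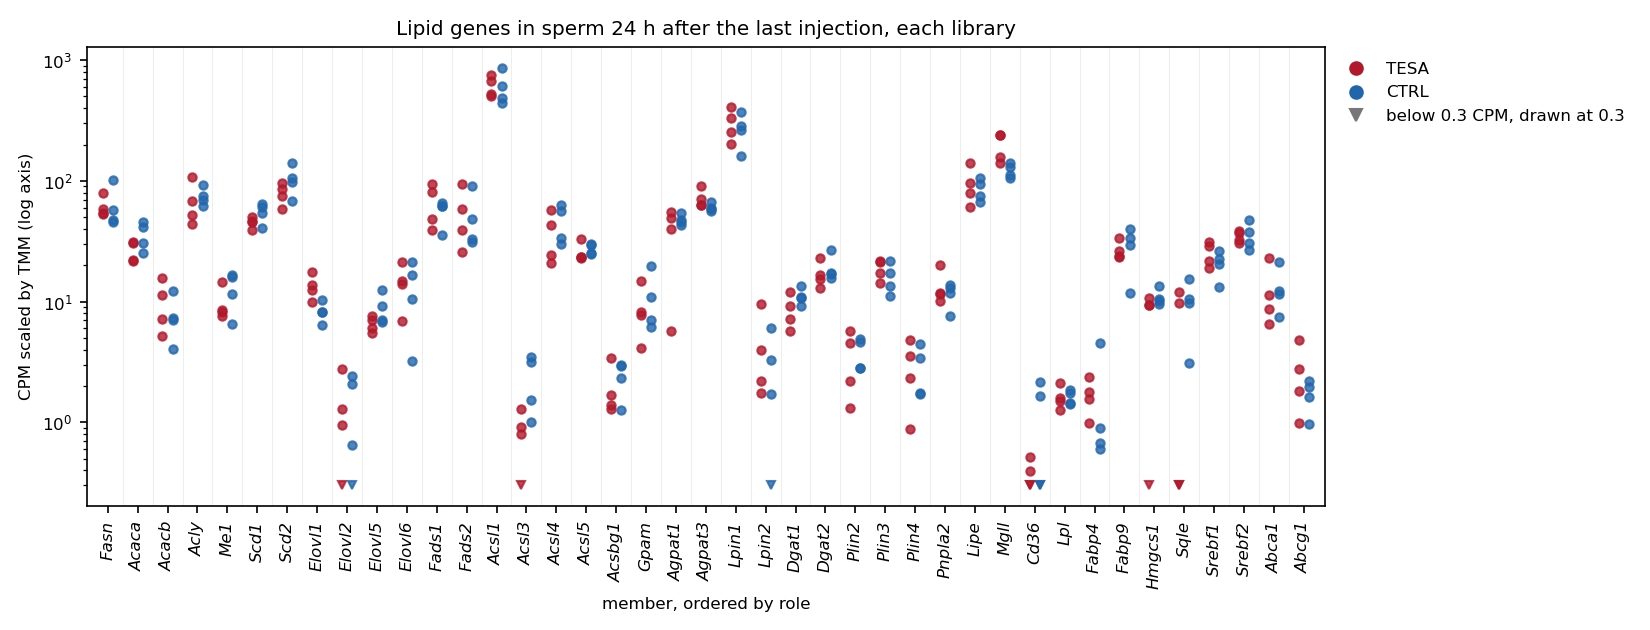
CPM scaled by TMM, on a log axis, of the 41 members in each polyA library 24 h after the last injection, with 4 TESA points (red) and 4 CTRL points (blue) a gene and values below 0.3 CPM drawn as triangles at 0.3. The 2 groups overlap for the 40 tested members; levels are not corrected for transcript length and are not comparable between genes.

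Lipid droplet and lipolysis genes had the highest median at 24 h, 0.18, with 5 of 6 members higher in TESA. Mgll, which frees the last fatty acid from monoacylglycerol, stood at 139.8, 238, 157 and 238 CPM in TESA and 106, 139.8, 131 and 111 in CTRL. Libraries 3, 5 and 7 lay above every CTRL library and library 1 between them, so the groups met at their edge. The log2 fold change was 0.66 (SE 0.25), with p = 0.0226 by the quasi-likelihood test and 0.0172 by the exact test, both of edgeR, and an adjusted p of 0.889 to 1.00 over the alternatives. With 1 library left out at a time the unadjusted p ran from 0.0124 to 0.0741, above 0.05 without TESA library 3 or 7 or CTRL library 2 or 8. Hormone-sensitive lipase Lipe, which has a form made in testis, stood at 96.5, 60.6, 142 and 79.4 CPM in TESA and 106, 67.1, 74.3 and 93.3 in CTRL (log2 fold change 0.15, SE 0.29). The coat protein Plin3 stood at 21.3, 17.3, 14.2 and 21.9 CPM in TESA and 11.0, 13.5, 21.8 and 17.2 in CTRL (log2 fold change 0.23, SE 0.27). For both, TESA held the highest value and the groups overlapped widely. The other droplet members were Pnpla2, which starts triglyceride breakdown (7.56 to 19.96 CPM over the 8 libraries, log2 fold change 0.22, SE 0.31), and the coat proteins Plin2 (1.31 to 5.74 CPM, log2 fold change -0.14, SE 0.54) and Plin4 (0.887 to 4.80 CPM, log2 fold change 0.03, SE 0.62).

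Among desaturation and elongation genes, 4 of 8 were higher in TESA and 4 lower (median 0.03). Elovl1, which lengthens saturated and monounsaturated very long chains, stood at 17.7, 9.82, 12.4 and 13.6 CPM in TESA and 6.40, 10.3, 8.23 and 8.16 in CTRL. Libraries 1, 5 and 7 exceeded every CTRL library, while library 3 lay just under CTRL library 4. Its log2 fold change was 0.69 (SE 0.28), with p = 0.0349 by the quasi-likelihood test and 0.0511 by the exact test, both of edgeR, and an adjusted p of 0.889 to 1.00 over the alternatives. With 1 library left out at a time the unadjusted p ran from 0.0209 to 0.104, above 0.05 without TESA library 1 or 7 or CTRL library 2, 6 or 8. Elovl5, an elongase of polyunsaturated chains, stood at 5.49, 6.98, 6.06 and 7.55 CPM in TESA and 12.4, 6.99, 6.74 and 9.17 in CTRL (log2 fold change -0.43, SE 0.32; p = 0.201 by the quasi-likelihood test and 0.275 by the exact test, both of edgeR). Scd2, a desaturase that places the first double bond, stood at 86.1, 95.1, 58.5 and 74.8 CPM in TESA and 68.1, 142, 97.5 and 106 in CTRL (log2 fold change -0.39, SE 0.26; p = 0.167 by the quasi-likelihood test and 0.187 by the exact test, both of edgeR). For Elovl5, 2 TESA libraries lay below every CTRL library, and for Scd2 1 did. Its paralogue Scd1 ran from 39.1 to 63.9 CPM (log2 fold change -0.28, SE 0.21); Salmon shares reads between similar transcripts, and how far this moved counts between paralogues was not tested. The desaturases of polyunsaturated synthesis, Fads1 (35.5 to 94.99 CPM, log2 fold change 0.22, SE 0.32) and Fads2 (26.0 to 93.5 CPM, log2 fold change 0.09, SE 0.45), and the elongases Elovl6 (3.19 to 21.4 CPM, log2 fold change 0.15, SE 0.53) and Elovl2 (0 to 2.77 CPM, log2 fold change -0.04, SE 1.44) overlapped widely. Elovl2 ran from -0.79, without TESA library 3, to 0.47, without CTRL library 2, when 1 library was left out. It had no count in TESA library 5 and CTRL library 6, which allows up to 0.148 and 0.146 CPM; such limits, taken at 3 counts, cover counting error only.

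De novo fatty acid synthesis leaned lower at 24 h, with 4 of 5 members lower in TESA and a median of -0.13; with library totals 2 of 5 were lower. Acaca, whose cytosolic acetyl-CoA carboxylase makes malonyl-CoA, stood at 30.6, 31.1, 21.9 and 21.7 CPM in TESA and 41.7, 45.6, 25.1 and 30.7 in CTRL (log2 fold change -0.44, SE 0.25; p = 0.113 by the quasi-likelihood test and 0.142 by the exact test, both of edgeR). Fasn, the synthase that builds palmitate, stood at 58.1, 80.01, 53.2 and 53.7 CPM in TESA and 47.7, 101, 45.8 and 57.8 in CTRL (log2 fold change -0.04, SE 0.29). TESA libraries 5 and 7 had less Acaca than any CTRL library, whereas Fasn did not separate the groups and peaked in CTRL library 4. Acacb, the mitochondrial carboxylase that restrains fatty acid oxidation, stood at 15.5, 5.16, 11.4 and 7.16 CPM in TESA and 12.2, 4.07, 7.33 and 7.00 in CTRL (log2 fold change 0.36, SE 0.44). Me1, malic enzyme and a source of NADPH, stood at 7.57, 8.43, 14.5 and 8.25 CPM in TESA and 11.6, 6.55, 16.0 and 16.7 in CTRL (log2 fold change -0.40, SE 0.36). Acacb was highest in TESA library 1 and Me1 in CTRL library 8, and both overlapped. Acly, which makes cytosolic acetyl-CoA from citrate, ran from 44.3 to 108 CPM (log2 fold change -0.13, SE 0.29).

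Acyl-CoA synthetases, which activate fatty acids for any further use, had 4 of 5 members lower in TESA and a median of -0.30; with library totals 3 of 5 were lower. Acsl3 was scarce, at 0.791, 0.918, 1.28 and 0 CPM in TESA and 1.00, 3.17, 3.49 and 1.53 in CTRL; its log2 fold change of -1.62 had an SE of 1.15 (p = 0.188 by the quasi-likelihood test and 0.121 by the exact test, both of edgeR). With limma voom it was -3.72, with an unadjusted p under 0.05. Libraries 1, 3 and 7 were below every CTRL library, library 7 with no count (up to 0.0688 CPM). Acsl1, the long-chain synthetase, stood at 668, 507, 746 and 519.6 CPM in TESA and 489.7, 439.9, 614 and 863 in CTRL (log2 fold change 0.02, SE 0.29). Acsl5 stood at 23.5, 22.8, 32.7 and 23.5 CPM in TESA and 25.0, 29.9, 29.5 and 25.1 in CTRL (log2 fold change -0.09, SE 0.21). Acsl1 overlapped between groups, and Acsl5 was low in 3 TESA libraries and highest in the remaining one, library 5. Acsl4, which prefers arachidonate, ran from 20.9 to 63.4 CPM (log2 fold change -0.34, SE 0.37) and Acsbg1 from 1.25 to 3.42 CPM (log2 fold change -0.30, SE 0.59).

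Glycerolipid synthesis had 3 of 7 members higher and 4 lower at 24 h (median -0.17). The acyltransferase Agpat1, which makes phosphatidic acid, stood at 39.6, 49.4, 5.70 and 55.5 CPM in TESA and 54.5, 47.4, 43.1 and 45.3 in CTRL (log2 fold change -0.34, SE 0.52). Its value in TESA library 5 was far below the other 7 libraries, which overlapped. With 1 library left out the log2 fold change of Agpat1 ran from -0.59 to 0.04, and over the other alternatives from -0.75 to -0.04. Agpat3, of the same family, stood at 90.7, 63.0, 71.3 and 62.6 CPM in TESA and 55.7, 58.2, 59.1 and 66.3 in CTRL (log2 fold change 0.26, SE 0.20). Lpin1, the phosphatase that turns phosphatidic acid into diacylglycerol, stood at 334, 203, 408 and 253 CPM in TESA and 266, 162, 284 and 371 in CTRL (log2 fold change 0.15, SE 0.32). Dgat2, which adds the final acyl chain of triglyceride, stood at 22.8, 15.4, 16.5 and 12.9 CPM in TESA and 26.6, 16.8, 15.7 and 17.1 in CTRL (log2 fold change -0.17, SE 0.27). Agpat3 reached above CTRL in TESA libraries 1 and 5, Lpin1 was mixed, and Dgat2 was highest in CTRL library 2. The remaining members were Gpam, of the first acylation step (4.14 to 19.6 CPM, log2 fold change -0.31, SE 0.48), Dgat1 (5.67 to 13.3 CPM, log2 fold change -0.38, SE 0.31) and Lpin2 (0 to 9.61 CPM, log2 fold change 0.66, SE 1.04), the last with no count in CTRL library 2 (up to 0.251 CPM). With 1 library left out, Lpin2 ran from -0.06, without TESA library 3, to 1.39, without CTRL library 8.

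Sterol genes had 2 of 6 members higher and 4 lower at 24 h (median -0.06). The cholesterol exporter Abca1 stood at 6.48, 22.9, 8.75 and 11.3 CPM in TESA and 12.2, 21.4, 7.47 and 11.4 in CTRL (log2 fold change -0.08, SE 0.45). With 1 library left out the log2 fold change ran from -0.56, without TESA library 3, to 0.28, without CTRL library 4. Library 3 of TESA and library 4 of CTRL were high and the other 6 low, so the groups overlapped fully. The same 2 libraries had the lowest sums of spermatid and sperm markers, 5738 and 3987 CPM against 7504 to 12887 in the others, and the highest Col1a1, 37.9 and 55.4 CPM against 8.15 to 20.3. Their summed stroma markers were 121 and 192 CPM against 51.9 to 153, and without Col1a1 83.4 and 136 against 43.8 to 135. Their leukocyte markers summed to 1406 and 1320 CPM against 1646 to 2696. Without Cd52 those leukocyte sums were 335 and 290 CPM against 239 to 499. Whether the cells in these samples bear on Abca1 was not tested. Hmgcs1, an early enzyme of cholesterol synthesis, had no count in TESA library 3 (up to 0.130 CPM) and 10.8 CPM at most in TESA, against 10.5, 10.1, 9.52 and 13.5 in CTRL (log2 fold change -0.57, SE 0.96). Sqle, squalene epoxidase, had no count in TESA libraries 1 and 5 (up to 0.185 and 0.148 CPM) and ran up to 15.4 CPM elsewhere (log2 fold change -0.83, SE 1.35). Of the 3 TESA libraries with Hmgcs1 counts, 2 lay just below every CTRL library, and those with Sqle counts lay within CTRL. Both values moved with the tool and the libraries: limma voom gave -2.17 for Hmgcs1 and -2.72 for Sqle. With 1 library left out Hmgcs1 ran from -0.79, without TESA library 1, to -0.15, without TESA library 3, and Sqle from -1.56, without TESA library 3, to -0.40, without TESA library 1 or 5. Whether the empty libraries lack these RNAs or Salmon assigned their reads elsewhere was not tested. The regulators Srebf1 (13.3 to 30.8 CPM, log2 fold change 0.28, SE 0.27) and Srebf2 (26.6 to 47.7 CPM, log2 fold change -0.04, SE 0.23) and the exporter Abcg1 (0.970 to 4.81 CPM, log2 fold change 0.64, SE 0.64) overlapped between groups. In uptake and binding (median 0.02 over 3 tested), the binding protein Fabp9, known from testis and sperm, ran from 11.8 to 39.9 CPM (log2 fold change -0.10, SE 0.34), lipoprotein lipase Lpl from 1.27 to 2.11 CPM (log2 fold change 0.03, SE 0.59), and the adipocyte and macrophage protein Fabp4 from 0.6004 to 4.51 CPM (log2 fold change 0.02, SE 0.83). The Fabp4 value rests on CTRL library 2, at 4.51 CPM with the next CTRL library at 0.890; without that library the log2 fold change was 1.25, and limma voom gave 1.04 with it.

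Within a group the members varied to different degrees. Over the 4 CTRL libraries at 24 h the coefficient of variation had a median of 29.8% over 41 members, from 7.58% for Agpat3 to 114%; 31 of 41 members had more than 20 counts in every library. TESA library 3 and CTRL library 4, the 2 with the lowest spermatid markers, were the highest of 8 for 12 and 8 of the 41 members, and CTRL library 2 was the lowest for 10. Summed over members, TESA stood at 2021 ± 95.6 CPM (SD, n = 4) and CTRL at 1958 ± 269 CPM (SD, n = 4), a difference smaller than the spread in CTRL.

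The comparison at 46 days asks whether lipid genes differ in sperm that formed after the injections. With all 14 libraries, 11 of the 14 members were higher in TESA, with a median log2 fold change of 0.57 (range -0.14 to 2.92) against 0.03 over the 2261 mRNAs and lincRNAs tested, of which 55.4% were higher. Without KG8-12 the member median was 0.03 against 0.01 over 2351 tested, with 9 members higher and 5 lower. The excess with all libraries thus came with 1 library, and Abca1 was the member that stayed higher in most TESA libraries without it. After Benjamini-Hochberg adjustment of edgeR's quasi-likelihood test, 0 of 14 members passed 0.05 in either comparison, as did 0% and 0% of all tested; DESeq2 and limma voom also called 0 of 14 in both. With all libraries edgeR's exact test called Abca1, among 12 of all 2261 tested, and DESeq2 and limma voom called 0 of them. Without KG8-12 the exact test called 0 members and 3 of all 2351 tested, DESeq2 2 and limma voom 0.

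At an unadjusted p under 0.05 by edgeR's quasi-likelihood test, 4 of 14 members were higher in TESA with all libraries (Abca1, Elovl5, Fasn and Dgat2), where 4.95% of all tested were, and 0 lower, where 0.796% were. DESeq2 and limma voom gave smaller log2 fold changes there for Elovl5 (-0.06 and 0.23), Fasn (0.03 and 0.25) and Dgat2 (0.08 and 0.36). With these tools, and with a term for KG8-11 to KG8-14, Abca1 was the only member with an unadjusted p under 0.05. Without KG8-12 it was Abca1 alone, 1 of 14 higher, where 1.19% of all tested were, and 0 lower, where 1.96% were. Groups that do not overlap were found for 0 of 14 members with all libraries (0.0442% of all tested) and for 0 without KG8-12 (0.0425%). Scaling by library totals in place of TMM moved the median of all genes to -1.03 and that of members to -0.86, so that 3 of 14 members were higher; the member median then lay 0.16 above that of all genes, against 0.54 with TMM.

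**Figure D2:**
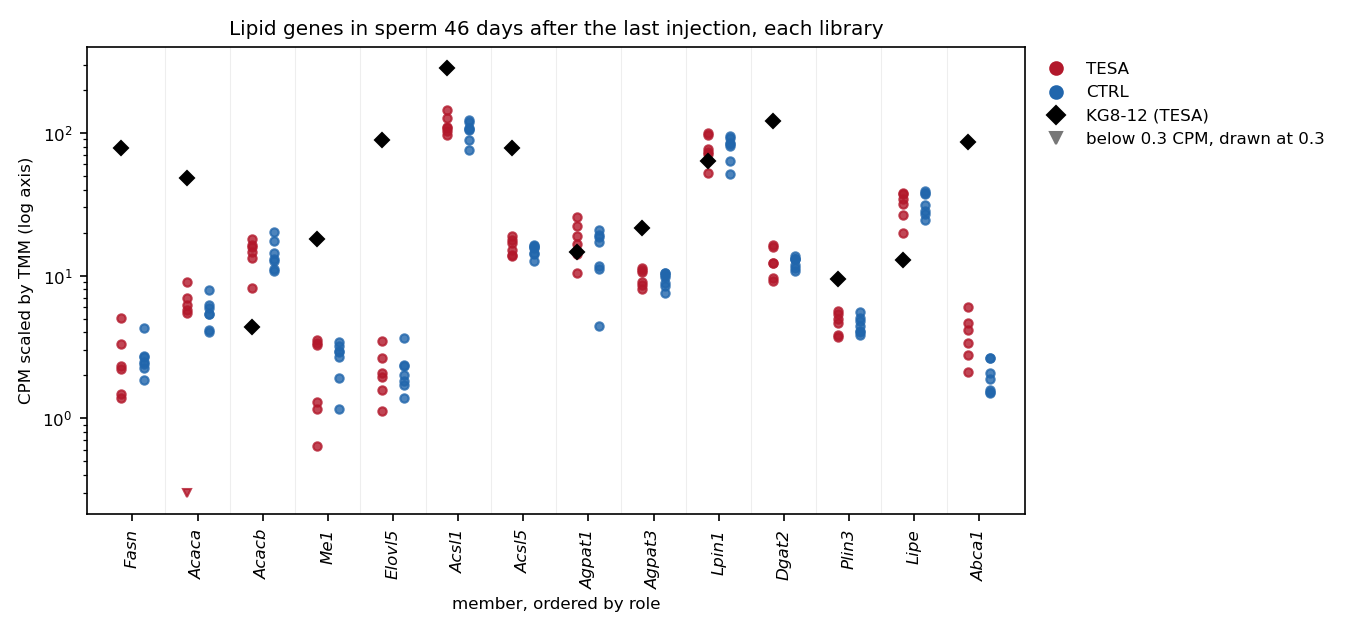
CPM scaled by TMM, on a log axis, of the 14 members in each total RNA library 46 days after the last injection, with TESA in red, CTRL in blue and KG8-12, a TESA library, as black diamonds. KG8-12 lies above the other 13 libraries for 10 members and below them for Acacb and Lipe with TMM, and above them for 3 members as CPM of all counts; levels are not corrected for transcript length.

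Abca1, which loads cholesterol and phospholipid onto apolipoprotein, was lowest, median and highest at 2.12, 4.16 and 86.6 CPM in TESA and 1.51, 1.87 and 2.67 in CTRL. In KG8-12 it was 32.8 times the median of the other 13 libraries, and 6 of the 7 TESA libraries lay above every CTRL library, KG8-03 being the exception. The log2 fold change was 2.92 (SE 0.81), with p = 0.00249 by the quasi-likelihood test and 0.000126 by the exact test, both of edgeR, and an adjusted p of 0.513 and 0.0285; over the alternatives the adjusted p ran from 0.0285 to 1.00. DESeq2 gave a log2 fold change of 0.89 and limma voom 1.07. DESeq2 replaces extreme counts, and whether that bears on its value was not tested. In KG8-01 to KG8-10 alone the log2 fold change of Abca1 was 0.82 (SE 0.33), and 1.95 (SE 0.74) with a term for KG8-11 to KG8-14. Scaled anew without KG8-12, it stood at 2.18, 4.09 and 6.29 CPM in 6 TESA libraries and 1.62, 2.04 and 2.99 in 7 CTRL libraries. Of those 6, 5 were above every CTRL library, so the groups overlapped through KG8-03. The log2 fold change was 0.87 (SE 0.25), with p = 0.00379 by the quasi-likelihood test and 0.00144 by the exact test, both of edgeR, and an adjusted p of 0.999 and 0.376; over the alternatives the adjusted p ran from 0.376 to 1.00.

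The counts behind Abca1 were few: 4 in KG8-02, 13 in KG8-04 and 219 in KG8-12 among TESA, and 7 in KG8-06 to 162 in KG8-14 among CTRL. As a share of the counts of all 14 members, a measure that no scaling changes and that was chosen after the values were seen, Abca1 took 9.33% in KG8-12, 0.679%, 1.18% and 1.74% (lowest, median, highest) in the other 6 TESA libraries, and 0.475%, 0.608% and 0.997% in CTRL. On that scale 4 of the 6 TESA libraries lay above every CTRL library, and the log2 ratio of the mean shares was 0.87. With library totals the log2 fold change with all libraries was 0.69 (SE 1.01), beside a median of -1.03 over all genes. Without KG8-12 it was 0.02, beside a median of -0.87 over all genes.

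Elovl5, the elongase of polyunsaturated chains and the only one of its role in the table, was lowest, median and highest at 1.12, 2.07 and 88.5 CPM in TESA and 1.38, 2.03 and 3.68 in CTRL (log2 fold change 2.70 with SE 0.95, and -0.12 with SE 0.25 without KG8-12). With all libraries it had p = 0.0120 by the quasi-likelihood test and 0.00219 by the exact test, both of edgeR, with an adjusted p of 0.690 by the former; without KG8-12 it had p = 0.631 by the quasi-likelihood test and 0.753 by the exact test, both of edgeR. KG8-12 was 43.7 times the median of the other 13 libraries, and the remaining 6 TESA libraries lay among the CTRL libraries or at their edges.

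De novo fatty acid synthesis had a median of 0.89 with all libraries and 0.02 without KG8-12, over 4 members. Fasn was lowest, median and highest at 1.38, 2.33 and 78.0 CPM in TESA and 1.86, 2.49 and 4.29 in CTRL (log2 fold change 2.27 with SE 0.86, and -0.01 with SE 0.30 without KG8-12). KG8-12 held the highest value, 32.4 times the median of the others, and the next highest TESA value, 5.02 in KG8-01, also exceeded the highest in CTRL, while 2 TESA libraries lay below every CTRL library. With all libraries Fasn had p = 0.0177 by the quasi-likelihood test and 0.00434 by the exact test, both of edgeR, with an adjusted p of 0.749 by the former. Acaca stood at 0, 6.22 and 48.0 CPM in TESA and 4.01, 5.36 and 7.87 in CTRL (log2 fold change 1.05 with SE 0.56, and 0.08 with SE 0.28 without KG8-12; with all libraries, p = 0.0782 by the quasi-likelihood test and 0.0632 by the exact test, both of edgeR). Me1 stood at 0.644, 3.24 and 18.03 CPM in TESA and 1.17, 2.90 and 3.44 in CTRL (log2 fold change 0.73 with SE 0.57, and -0.14 with SE 0.37 without KG8-12). Acaca and Me1 were again highest in KG8-12, at 8.38 and 6.23 times the median of the others, and Acaca had no count in KG8-02, a library so shallow that this allows up to 3.49 CPM. Acacb went the other way in KG8-12, its lowest library, and stood at 4.39, 14.6 and 18.2 CPM in TESA and 10.8, 13.0 and 20.1 in CTRL (log2 fold change -0.08 with SE 0.25, and 0.04 with SE 0.17 without KG8-12). Its other TESA libraries, apart from KG8-02, lay within CTRL.

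Both acyl-CoA synthetases in the table were higher in TESA with TMM, with medians of 0.57 and, without KG8-12, 0.08, and lower with library totals, as were 11 of the 14 members. Acsl1 was lowest, median and highest at 96.4, 109 and 283 CPM in TESA and 75.8, 106 and 123 in CTRL (log2 fold change 0.42 with SE 0.23, and 0.12 with SE 0.11 without KG8-12). Without KG8-12 it had p = 0.303 by the quasi-likelihood test and 0.393 by the exact test, both of edgeR, with 2 of 6 TESA libraries above every CTRL library. Acsl5 stood at 13.6, 16.9 and 78.6 CPM in TESA and 12.6, 15.5 and 16.5 in CTRL (log2 fold change 0.72 with SE 0.36, and 0.04 with SE 0.11 without KG8-12; with all libraries, p = 0.0644 by the quasi-likelihood test and 0.0520 by the exact test, both of edgeR). KG8-12 was 2.63 times the median of the others for Acsl1 and 5.07 times for Acsl5, and the rest overlapped.

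Glycerolipid synthesis had a median of 0.25, and of 0.02 without KG8-12, over 4 members. Dgat2 was lowest, median and highest at 9.19, 12.3 and 121 CPM in TESA and 10.8, 13.0 and 13.8 in CTRL (log2 fold change 1.159 with SE 0.53, and 0.01 with SE 0.13 without KG8-12; with all libraries, p = 0.0434 by the quasi-likelihood test and 0.0257 by the exact test, both of edgeR, with an adjusted p of 0.803 by the former). KG8-12 was 9.80 times the median of the others, while the other TESA libraries fell on both sides of CTRL. Agpat1 stood at 10.4, 16.6 and 25.6 CPM in TESA and 4.42, 17.1 and 20.8 in CTRL (log2 fold change 0.22 with SE 0.28, and 0.19 with SE 0.28 without KG8-12). Agpat3 stood at 8.08, 10.6 and 21.4 CPM in TESA and 7.52, 9.80 and 10.5 in CTRL (log2 fold change 0.28 with SE 0.20, and 0.03 with SE 0.13 without KG8-12). Lpin1 stood at 52.0, 73.0 and 98.9 CPM in TESA and 51.5, 83.4 and 95.5 in CTRL (log2 fold change -0.05 with SE 0.17, and -0.03 with SE 0.15 without KG8-12). Agpat3 was highest in KG8-12, at 2.19 times the median of the others, but Agpat1 and Lpin1 in that library lay within the range of the rest, and CTRL and TESA overlapped for all 3.

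Of the droplet and lipolysis genes, Plin3 was lowest, median and highest at 3.71, 4.95 and 9.47 CPM in TESA and 3.82, 4.43 and 5.57 in CTRL (log2 fold change 0.24 with SE 0.21, and 0.03 with SE 0.15 without KG8-12). Lipe stood at 12.9, 31.7 and 37.9 CPM in TESA and 24.7, 31.0 and 39.0 in CTRL (log2 fold change -0.14 with SE 0.21, and -0.04 with SE 0.14 without KG8-12). KG8-12 was the highest library for Plin3, at 2.03 times the median of the others, and the lowest for Lipe, and without it both genes overlapped widely. Over the 7 CTRL libraries the coefficient of variation of the 14 members had a median of 21.8%, from 8.85% to 40.0%. Mgll, whose unadjusted p was the smallest at 24 h, was not analysed here at 46 days.

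**Figure D3:**
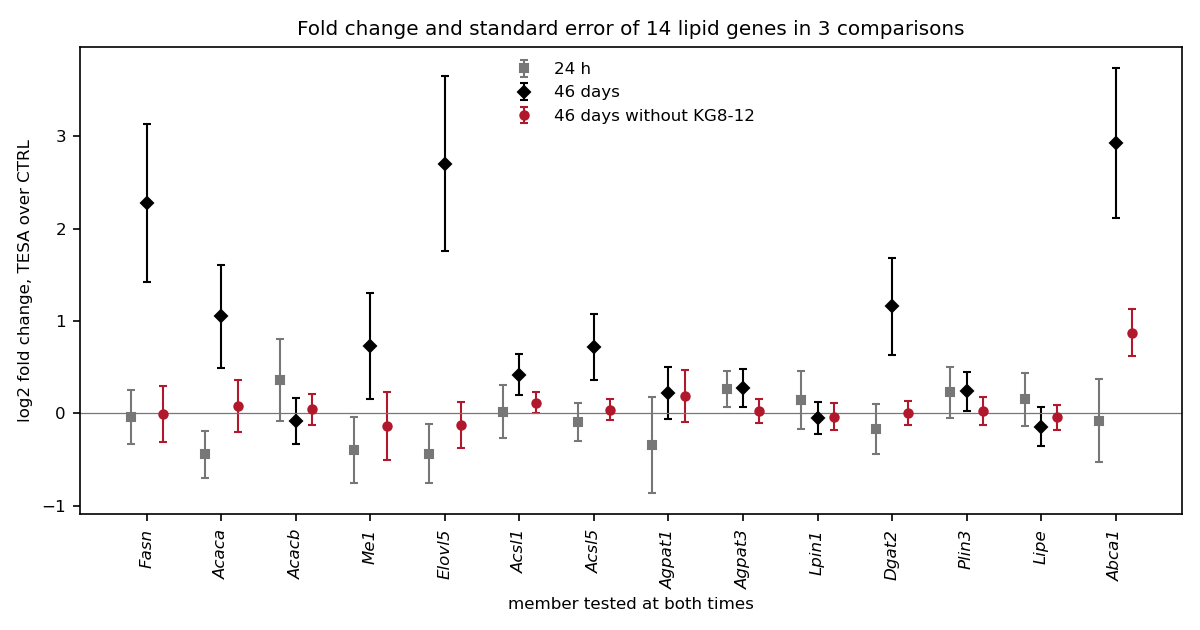
Log2 fold change of TESA over CTRL, with an SE derived from the test statistic, for 14 members. They were tested at 24 h (grey squares), at 46 days (black diamonds) and at 46 days without KG8-12 (red circles). Abca1 stands at 2.92 and 0.87 at 46 days and at -0.08 at 24 h, and the other 13 members lie between -0.14 and 0.19 without KG8-12; with library totals in place of TMM, 3 of 14 members were higher at 46 days and 1 of 14 without KG8-12.

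Shares of the counts of the 14 members, which need no scaling, also differed in KG8-12. Of the 14 shares, 7 were above those of all other 13 libraries and 6 below; as shares add up to a fixed total, a higher share of some members lowers the others. Those above were Fasn, Acaca, Me1, Elovl5, Acsl5, Dgat2 and Abca1. Shares within other sets of genes were not computed. With TMM, KG8-12 was the highest library for 26.4% of the 2261 mRNAs and lincRNAs tested and the lowest for 27%. Dgat2 took 13.0% against 3.33% to 5.43% elsewhere, and Elovl5 9.54% against 0.405% to 1.31%. Lpin1 took 6.86% in KG8-12 against 19.5% to 28.9% elsewhere, and Lipe 1.39% against 7.49% to 12.1%. KG8-12 also held 29.4 CPM of Vwf, the only blood and endothelium marker in the 46-day table, within the 22.1 to 70.7 CPM of the others. Its 18 spermatid and sperm markers summed to 511 CPM, against 663 to 1048 in the other TESA libraries and 444 to 976 in CTRL, led by Prm2. No leukocyte, epididymal, adipocyte or stroma marker was in that table, so the part of such cells in the values of KG8-12 was not tested.

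**Figure D4:**
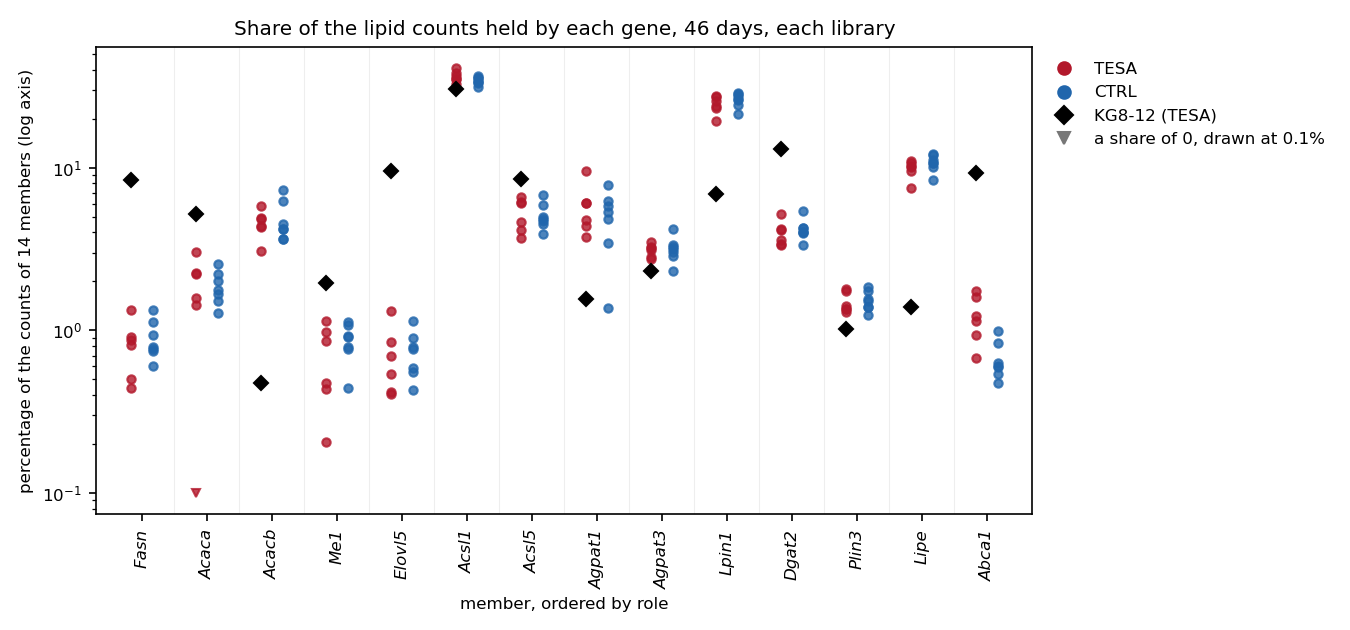
Percentage of the counts of the 14 members held by each of them in each library 46 days after the last injection, on a log axis, with TESA in red, CTRL in blue, KG8-12 as black diamonds and a share of 0 as a triangle at 0.1%. KG8-12 lies above the other 13 libraries for 7 members and below them for 6. Shares within other sets of genes were not computed.

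Whether the effect at 46 days differed from that at 24 h was tested in a single model over the 22 sperm libraries, for features tested in both tables. By edgeR's quasi-likelihood test of that difference, 0 of 14 members and 0% of all 2141 features passed an adjusted p of 0.05; without KG8-12 it was 0 of 14 and 0% of 2221. Abca1 differed by 3.00 (SE 1.10; adjusted p = 0.380), and by 0.96 without KG8-12 (SE 0.50; adjusted p = 0.556), in that edgeR quasi-likelihood test. Elovl5 differed by 3.13 (SE 1.25; adjusted p = 0.419 in edgeR's quasi-likelihood test), and by 0.31 without KG8-12 (SE 0.40). With library totals in place of TMM, Abca1 differed by 0.50 (SE 1.39) and Elovl5 by 0.44 (SE 1.41), beside a median of -0.98 over all features, against 0.33 with TMM. At an unadjusted p under 0.05 the 2 were higher at 46 days with all libraries, where 9.25% of all features were, and 0 lower, where 0.467% were. Without KG8-12 it was 0 members in either direction (9.23% and 0.720% of all features), and with library totals also 0 (0.140% and 0.420%). At both times the same 14 genes were compared, but time and library type cannot be told apart in that difference.

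Other genes of the same pathways were counted in the same way. At 24 h, 0 of the other lipid genes tested had an unadjusted p under 0.05 by edgeR's quasi-likelihood test in either direction. Of all genes tested, 0.982% were higher and 1.42% lower at that threshold. The other lipid genes, of which 0 passed adjustment, were 21 of fatty acid synthesis (median log2 fold change -0.02), 35 of cholesterol synthesis and transport (-0.06), 25 of glycerolipid synthesis (-0.01), 13 of droplets and lipolysis (-0.07) and 18 of uptake and binding (0.16). At 46 days the list medians were 0.51 for fatty acid synthesis (2 tested), 0.59 for cholesterol (2), 0.09 for glycerolipid synthesis (4) and -0.03 for uptake (4), with no droplet gene tested; without KG8-12 they were 0.02 (2), 0.10 (3), 0.01 (5) and 0.01 (4). Again 0 passed adjustment. At an unadjusted p under 0.05, Fads6 and Lrp1 were higher with all libraries, where 4.95% of all genes tested were, and Dhcr7 and Lrp1 without KG8-12, where 1.19% were; 0 were lower, where 0.796% and 1.96% were. Lrp1, a receptor that takes up lipoproteins, was lowest, median and highest at 2.02, 3.94 and 466 CPM in TESA and 1.65, 2.50 and 3.20 in CTRL (log2 fold change 4.78, SE 1.30; adjusted p = 0.513 by edgeR's quasi-likelihood test), and KG8-12 was the library at its top. Without KG8-12 it stood at 2.07, 3.36 and 6.52 CPM in TESA and 1.85, 2.78 and 3.40 in CTRL (log2 fold change 0.57, SE 0.27; adjusted p = 0.999 by edgeR's quasi-likelihood test). There 3 of the 6 TESA libraries lay above every CTRL library and the others among them. With library totals the log2 fold changes were 1.98 and -0.04.

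The desaturase-like gene Fads6 was lowest, median and highest at 4.43, 6.68 and 43.4 CPM in TESA and 3.82, 5.33 and 7.02 in CTRL (log2 fold change 1.06, SE 0.47; adjusted p = 0.790 by edgeR's quasi-likelihood test), again with its top in KG8-12. Without that library its log2 fold change was 0.13 (SE 0.18), and with library totals it was -0.85 and -1.02. Dhcr7, the last step of cholesterol synthesis, passed the count filter only without KG8-12 and stood at 1.88, 2.31 and 3.06 CPM in TESA and 0.783, 1.58 and 1.85 in CTRL (log2 fold change 0.67, SE 0.24; adjusted p = 0.999 by edgeR's quasi-likelihood test). All 6 TESA libraries in that comparison lay above every CTRL library, the 1 gene of 2351 (0.0425%) whose groups did not overlap with TMM. KG8-12, the TESA library left out, went the other way, with 1.23 counts of Dhcr7, the fewest of all 14 libraries. As CPM of all counts, without TMM, Dhcr7 stood at 0.154 in KG8-12, against 0.557 in KG8-06, the lowest CTRL library. Apart from KG8-12, counts of Dhcr7 were also few, from 2 in KG8-02 to 69.4 in KG8-11 in TESA and 4.58 in KG8-06 to 117 in KG8-14 in CTRL. With library totals, tried for Dhcr7 after its values were seen, the log2 fold change was -0.42 (SE 0.95) beside a median of -0.87 over all genes, and 0 of 6 TESA libraries lay above every CTRL library. The marker lists held 1 gene with an unadjusted p under 0.05, endothelial Vwf at 24 h, where 1.42% of all genes tested were lower. Vwf stood at 18.1, 20.4 and 21.7 CPM in TESA and 20.1, 27.9 and 52.9 in CTRL (log2 fold change -0.68, SE 0.30; adjusted p = 1.00 by edgeR's quasi-likelihood test). Its 7-gene list had a median of -0.35, leukocyte markers -0.12 (22 tested), epididymal epithelium 0.45 (12 tested, 9 higher), stroma 0.15 (10 tested) and spermatid markers -0.01 (21 tested) at 24 h; spermatid markers had a median of 0.07 at 46 days (17 tested) and 0.06 without KG8-12.

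The 43 listed genes lie on 16 chromosomes of GRCm38, and 4 pairs lie within 150000 bases of each other: Fads2 and Fads1 (81373 bases apart), Scd2 and Scd1 (87585) and Gpam and Acsl5 (124541) on chromosome 19, and Fabp9 and Fabp4 (7058) on chromosome 3. At 24 h the log2 fold changes within the pairs were 0.09 and 0.22, -0.39 and -0.28, -0.31 and -0.09, and -0.10 and 0.02.

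Promoter sequence was examined over the whole list, as a description. Members high in KG8-12 were not compared with the rest. RefSeq windows on GRCm38.p6, from 250 bases before to 50 after each start, matched 33 of the 43 genes with 47 windows; Fabp4, Fads1, Lpl, Scd2, Dgat2, Abcg1, Sqle, Scd1, Dgat1 and Fabp9 were not matched. Exact letters were searched on both strands. The sterol element TCACNCCAC was in 2 of 47 member windows (4.26%, Acsl1 and Hmgcs1) and in 1.24% of all 32851 windows. The nuclear receptor motif AGGTCA was in 11 (23.4%) and in 16.3% of all. Its direct repeats AGGTCANAGGTCA and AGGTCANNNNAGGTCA, which contain that motif, were in 0 of 47 and in 0.0396% and 0.0152% of all. CCAAT was in 23 (48.9%), of 21 members, and in 37.4% of all, and the cAMP element TGACGTCA in 1 (2.13%, Elovl5) and in 1.79% of all. Member windows were richer in G and C over the 250 bases before the start, with a median of 63.2% (39.2% to 87.2%) against 52.4% over all windows. A match describes letters, not a site that is used, and a lack of matches does not show that a site is missing. Variants of these letters were not searched. As exact letters the direct repeats are so rare over all windows that 0 of 47 says little of them. The stretches below are those before the start and outside the annotated gene for the members with the smallest p, Abca1 (chr4:53159989-53160145, minus strand) and Mgll (chr6:88724162-88724411, plus strand), for Elovl5 (chr9:77917115-77917364, plus strand), and for Hmgcs1 (chr13:119690101-119690350, plus strand), which holds the sterol element from -137 to -129. For Fasn a site of 30 bases is shown (chr11:120824591-120824620, minus strand), since its window lies inside the annotated span of the gene. Capitals mark the motifs searched on either strand. Abca1 and Mgll hold no exact match in the stretch printed. The Abca1 stretch ends at -94, and the bases from there to the start, not printed, held no exact match either. Whether they hold a variant of a motif was not tested.
Abca1: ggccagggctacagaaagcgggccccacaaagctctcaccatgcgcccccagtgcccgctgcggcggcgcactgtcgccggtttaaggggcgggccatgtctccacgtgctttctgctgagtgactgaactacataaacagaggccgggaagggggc
Mgll: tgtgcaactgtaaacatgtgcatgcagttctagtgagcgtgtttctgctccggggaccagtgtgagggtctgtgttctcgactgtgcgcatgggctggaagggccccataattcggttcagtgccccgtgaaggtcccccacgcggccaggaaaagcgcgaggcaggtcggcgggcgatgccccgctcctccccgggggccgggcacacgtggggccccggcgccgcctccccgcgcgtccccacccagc
Elovl5: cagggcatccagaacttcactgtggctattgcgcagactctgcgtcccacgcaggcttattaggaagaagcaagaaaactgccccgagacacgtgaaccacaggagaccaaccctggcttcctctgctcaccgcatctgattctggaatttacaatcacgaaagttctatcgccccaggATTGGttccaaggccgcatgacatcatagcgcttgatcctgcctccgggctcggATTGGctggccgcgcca
Hmgcs1: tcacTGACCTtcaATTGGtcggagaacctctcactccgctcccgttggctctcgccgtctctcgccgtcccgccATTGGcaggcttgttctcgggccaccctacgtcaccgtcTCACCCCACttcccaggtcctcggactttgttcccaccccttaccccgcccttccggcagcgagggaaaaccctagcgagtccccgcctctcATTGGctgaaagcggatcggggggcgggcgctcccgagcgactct
Fasn: ggcctcggtgtCCAATTGGtttcgatgtgg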

How the data were processed

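Sperm RNA was measured in 8 polyA libraries (24 h) and 14 rRNA-depleted total RNA libraries (46 days); 8 serum small RNA libraries hold no values of these genes. The authors quantified trimmed reads with Salmon on GRCm38 transcripts, piRNA precursors and repeat families and deposited estimated counts, not normalised, per gene or repeat family. Here estimated counts were rounded, scaled by TMM over all features, and tested in edgeR 4.0.16 (R 4.3.3) with the quasi-likelihood test, TESA against CTRL, each table fitted apart. The SE given is the absolute log2 fold change divided by the square root of F, the statistic of that test. It is not an error that edgeR reports. Features needed more than 20 counts in 80% of the smallest group: 4 libraries at 24 h, 6 at 46 days and 5 without KG8-12. The mRNAs and lincRNAs were fitted and Benjamini-Hochberg adjusted together, apart from repeat families, at a threshold of 0.05. Every feature of the 46-day table passes 20 counts in 2 libraries or more, so genes scarce there were not analysed here. Depth ran from 4538102 to 27709990 estimated counts a library; single-digit counts in the shallow libraries limit precision.

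Members passing the filter in both tables and the 6 with the smallest p in each comparison were described in full, with every library at 24 h and the lowest, median and highest value at 46 days, where each library is in the figure; from other lists, genes with an unadjusted p under 0.05, at most 4 a list. The members and lists were chosen with earlier results of these data known. Alternatives were edgeR's exact test, DESeq2 1.42.0, limma 3.58.1 voom, DESeq2 size factors, library totals, TMM over tested features, no count filter, filterByExpr, repeat families included, each library left out, KG8-01 to KG8-10 alone, and a term for KG8-11 to KG8-14; shares of member counts and, for Dhcr7, library totals were added after seeing the data. No lengths were at hand, so levels per length were not computed. Figures were drawn with Python 3.11.15 and matplotlib 3.10.9. Of the columns of per-sample values in the sperm tables, 0 were unused. The fit was tested on simulated data.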

Additional observations from a re-analysis of the deposited data

Results flagged for a closer look

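Within each group of samples, the highest and lowest value of each member were compared with the nearest other value. Of 110 such groups of values, 18 held a sample far from the rest. Chance gives about 1 in 20 for independent, normally distributed values, which these need not be, and other genes were not examined this way. Of the 18, 10 were in TESA at 46 days, and all 10 were KG8-12 at the top. These 10 share the scaling of 1 library and are not separate events. KG8-12 was the highest of all 14 libraries for 26.4% of the 2261 mRNAs and lincRNAs tested and the lowest for 27%. The sum over the 14 members, which adds up the same values, was likewise far from the rest in KG8-12, at 927 CPM with the next TESA library at 378. Its Abca1 stood at 86.6 CPM (next 6.02), Elovl5 at 88.5 (next 3.49), Fasn at 78.0 (next 5.02) and Dgat2 at 121 (next 16.3). Its Acsl5 stood at 78.6 CPM (next 19.0), Acaca at 48.0 (next 9.00), Me1 at 18.03 (next 3.54) and Acsl1 at 283 (next 144). Its Agpat3 stood at 21.4 CPM (next 11.4) and Plin3 at 9.47 (next 5.64). KG8-12 had a TMM factor of 0.316 and 569646 counts outside the 5 most abundant features, and as a percentage of those its members held 0.412%, inside the 0.144% to 0.447% of the other libraries.

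In CTRL at 46 days, Elovl5 in KG8-06 (3.68 CPM, next 2.36) and Fasn in KG8-08 (4.29, next 2.75) were far above their group. In CTRL at 24 h, library 2 had the highest Dgat2 (26.6 CPM, next 17.1) and Fabp4 (4.51, next 0.890) and the lowest Fads1 (35.5, next 62.3). In TESA at 24 h, library 5 had the highest Acsl5 (32.7 CPM, next 23.5) and Me1 (14.5, next 8.43), and library 3 had 0 CPM of Hmgcs1 (next 9.27).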

How the results depend on the processing

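The count of members passing adjustment was 0 under every alternative at 24 h and at 46 days without KG8-12, by edgeR, DESeq2 and limma voom. For the difference between times, run with edgeR's quasi-likelihood test only, it was 0 with all libraries, without KG8-12 and with library totals. At 46 days it was 0 in all but edgeR's exact test, which called 1, Abca1 (adjusted p = 0.0285; over its alternatives 0.0285 to 1.00), among 12 of all 2261 tested. Members with an unadjusted p under 0.05 at 24 h numbered 2, with the exact test 1, with limma voom 3 (Acsl3 being lower), and 0 to 2 with 1 library left out: 0 without CTRL library 2, TESA library 7 or CTRL library 8, 1 without TESA library 1 or 3, and 2 without CTRL library 6, where Acaca, lower, replaced Elovl1. At 46 days they numbered 4, with DESeq2 1, with limma voom 1, with library totals 0, with KG8-01 to KG8-10 alone 1, with a term for KG8-11 to KG8-14 1, and 1 to 5 with 1 library left out, 1 being without KG8-12. The median log2 fold change at 24 h, -0.04, was 0.17 with library totals, where all genes had 0.21. At 46 days it was 0.57, 0.16 with DESeq2, 0.21 with limma voom, -0.86 with library totals (all genes -1.03), and 0.027 to 0.64 with 1 library left out, 0.027 being without KG8-12. Why library totals, the tool or the sets of libraries changed these values was not tested; TMM factors ran from 0.0981 to 8.15.

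Abca1 without KG8-12 kept an unadjusted p under 0.05 by edgeR's tests, DESeq2 and limma voom in each alternative but library totals (log2 fold change 0.02); leaving out 1 more library moved it between 0.67 and 1.03, and adjusted p ran from 0.376 to 1.00. With library totals, which shift all genes, 9 of 40 members changed sign at 24 h, 8 of 14 at 46 days and 8 of 14 without KG8-12. In the other refits signs changed in 4 of 320 at 24 h (47 of 320 with 1 library left out), 6 of 139 at 46 days (5 of 196) and 11 of 126 without KG8-12 (27 of 179). No paired analysis was possible because the compared groups share no replicate numbers. Elovl5 did not pass the filter in KG8-01 to KG8-10 alone, leaving 13 members. Depth limits the 46-day levels: before rounding, 3 of 14 members had more than 20 counts in every library, against 31 of 41 at 24 h. Agpat1 is among these 3 with a lowest count of 20.187, which rounds to 20.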
